A study of Mus musculus with 4 samples.

Results

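The genes described here are 40 mouse genes of glycolysis and the hypoxia response, 24 of them glucose and lactate transporters, glycolytic enzymes and their regulatory kinases, and 16 of them genes of oxygen sensing and targets of the hypoxia-inducible factor HIF-1. They were chosen by name, through the gene names of 72 non-control probes on the array, and all 40 were among the 19895 genes tested, out of 27656 genes named on the array. Their signals were read on 13 2-colour Agilent arrays, each of which carried 1 Treg and 1 T-effector sample of CD4+ mouse lymph node cells in opposite dyes. All cells were held for 4 days on plates coated with anti-CD3 at 1 ug/ml, an antibody that triggers the T cell receptor, and all received IL2, a T cell growth factor, at 100 units/ml. The 4 conditions were IL2 with no further cytokine (3 arrays), IL2 with TGFb at 4 ng/ml (3 arrays), IL2 with IL6 at 25 ng/ml (3 arrays) and IL2 with both TGFb and IL6 (4 arrays), with 3 days of cytokine. They are called IL2, TGFb, IL6 and TGFb+IL6 below. How Treg and T-effector cells were separated, the age and strain of the mice, and the number of cultures or animals behind the arrays are not given in the sources used here, so p-values measure only the spread between arrays, which may be technical. In such bulk RNA, fewer cells of a type and less RNA per cell cannot be told apart.

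Glycolysis turns glucose into pyruvate, which activated T cells largely reduce to lactate and export. HIF-1, whose alpha subunit is marked for destruction by oxygen-dependent prolyl hydroxylases, switches on most glycolytic genes together with genes of mitophagy, collagen modification and stress. T cell receptor signals can raise HIF-1 in normal oxygen, and the pathway is known for favouring Th17 cells, which TGFb and IL6 together induce, over Treg cells, which TGFb with IL2 induces.

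The sample types were checked first. Foxp3, the lineage factor of Treg cells, was higher in the Treg than in the T-effector channel by a log2 ratio of 2.39 with IL2, 1.95 with TGFb, 2.16 with TGFb+IL6 and 2.12 with IL6, and passed the test in each. The T cell receptor genes Cd3e and Cd3g were well above background in all 26 channels and Cd4 in 25. Cd4 read low, at 6.65 to 7.28, while Cd8b1, a gene of CD8 T cells, read 9.67 to 11.38. Signals of different probes cannot be set against each other directly, and the purity of the CD4+ samples was not tested. Between 38.9% and 69.7% of probes were well above background in a Treg channel and 41.7% to 67% in a T-effector channel. Of the 40 genes, 36 were well above background in all 26 channels. The exceptions were Gapdh (24 channels), Eno2 (23), Adm (23) and P4ha2 (17). Gapdh, the enzyme that oxidises glyceraldehyde phosphate, has near-identical pseudogenes and was found through a gene number. Its probe was dim, with a mean log2 signal of 6.87, beside 13.33 for Tpi1 and 14.8 for Pgk1, enzymes of the same pathway. The values of Gapdh are therefore uncertain. Values below are log2 channel signals after normalization, and differences are log2 differences from limma's separate-channel fit with their standard error (SE). The adjusted p is Benjamini-Hochberg over all 19895 genes, with a threshold of 0.05, and "rose" and "fell" are used for differences past it.

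The Treg channels of slide A, which held array 1 of IL2 and array 2 of IL6, stood apart from the others of their conditions. Hk2 (hexokinase 2) read 10.11 and 10.33 there, against 11.61 to 11.94 in the other Treg channels of IL2 and IL6. The log2 ratio of Egln3 was -1.56 and -2.29 there, against -0.75 to -0.17 on the 11 other arrays, and the CD8 chain gene Cd8b1 read 9.83 and 9.67 against 11.00 to 11.35. Counts are therefore given with and without slide A, an alternative added after the data had been seen, which leaves 2 arrays each of IL2 and IL6.

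HIF-1 binds the letters ACGTG or GCGTG, so promoter windows from 250 bases before to 50 after the start were searched for them on both strands. RefSeq windows (GRCm38.p6) matched 37 of the 40 genes, with 55 starts; Bnip3l, Ndrg1 and Slc2a3 had no entry. The letters were in a window of 34 of these 37 genes (91.9%) against 46.7% of all 27025 genes, and in 43 of 55 windows (78.2%) against 43.8% of all 32851 windows. They were in 20 of 23 glycolysis genes and 14 of 14 hypoxia genes; Tpi1, Gpi1 and Eno2 held none. Both spellings contain a CpG, and the genes' windows held a median of 21 CpG against 7 in all windows, with 63.0% against 52.7% G and C. The share that base composition accounts for was not tested, and a match is letters only, not a site of binding. Stretches of 120 bases are shown for 6 genes, 5 that fell and 1 that rose, picked after their values were seen, because both kinds carry the same letters. They read 5′ to 3′ along the gene's strand, with matches in capitals (CACGT and CACGC are the same letters on the other strand, and CACGTG is a match on both strands at once).
Slc16a3, chr11:120948947-120949066, plus strand: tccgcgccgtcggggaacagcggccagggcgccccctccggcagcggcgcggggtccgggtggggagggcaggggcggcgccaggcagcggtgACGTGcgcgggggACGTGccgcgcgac
Ldha, chr7:46845684-46845803, plus strand: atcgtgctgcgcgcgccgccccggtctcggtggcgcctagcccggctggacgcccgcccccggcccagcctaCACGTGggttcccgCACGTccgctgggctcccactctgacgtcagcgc
Pgam1, chr19:41911751-41911870, plus strand: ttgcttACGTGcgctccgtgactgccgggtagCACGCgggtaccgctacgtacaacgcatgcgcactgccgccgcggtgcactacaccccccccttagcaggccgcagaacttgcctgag
Bnip3, chr7:138909507-138909626, minus strand: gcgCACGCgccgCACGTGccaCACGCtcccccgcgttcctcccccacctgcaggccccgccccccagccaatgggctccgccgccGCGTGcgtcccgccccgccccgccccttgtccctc
Higd1a, chr9:121857797-121857916, minus strand: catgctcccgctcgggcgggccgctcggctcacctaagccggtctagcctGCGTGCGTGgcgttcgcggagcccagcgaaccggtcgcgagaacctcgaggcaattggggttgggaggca
P4ha1, chr10:59323176-59323295, plus strand: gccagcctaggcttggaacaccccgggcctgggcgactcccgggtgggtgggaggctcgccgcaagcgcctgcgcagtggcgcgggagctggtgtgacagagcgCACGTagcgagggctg

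Most of the 40 genes were lower where TGFb had been added, both with IL6 and without it. With TGFb+IL6 against IL6, 26 genes passed the test in Treg samples (10.1% of all genes tested did) and 21 in T-effector samples (11.2%). In Treg samples 22 fell (5.25% of all genes did) and 4 rose (4.84%), and in T-effector samples 20 fell (6.05%) and 1 rose (5.13%). The median difference over the 40 genes was -0.584 in Treg and -0.669 in T-effector samples, against -0.0334 and 0.00479 over all genes. All 24 glycolysis genes were below 0 in both sample types, with 15 falling in Treg and 11 in T-effector samples. Of the 16 hypoxia genes, 7 fell and 4 rose in Treg samples, and 9 fell and 1 rose in T-effector samples. Called in both sample types were 17 genes, 65.4% of the Treg list and 81% of the T-effector list, all in the same direction; the sample types share their arrays. Slide E held array 1 of TGFb+IL6 and array 1 of IL6 in the same dye, while the other TGFb+IL6 arrays lay on slides B and D. Between this single pair of arrays 24 of 24 glycolysis genes were below 0. The medians were -0.814 in Treg and -0.66 in T-effector samples (0.0157 and 0.0135 over all genes). Without slide A, 23 fell and 1 rose in Treg samples and 23 fell and 1 rose in T-effector samples, beside 11.9% and 10.4% of all genes called. Its removal ended the Treg calls of Gpi1 (adjusted p = 0.125), Eno2 (0.0882), Ldhb (0.0663), Bnip3l (0.235), Egln3 (0.161), Adm (0.21) and Mxi1 (0.0691), and the T-effector call of Bnip3l (0.0959), all by limma. The Treg count of 26 was 15 without array 1, 14 without array 3 and 16 without array 4 of TGFb+IL6, 14 without array 1 and 13 without array 3 of IL6, 14 without slide B and 7 without slide E, which leaves 1 IL6 array; without slide E the T-effector count was 9. Of the single calls, 9 of 26 in Treg and 14 of 21 in T-effector samples held with each of the 13 arrays left out in turn. For the counts without single arrays, slide B or slide E, the share of all genes called is not given, here or in most places below. Such counts show how the calls depend on the arrays and cannot be set against all genes.

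TGFb against IL2, the same addition with no IL6, gave fewer calls. They were 12 in Treg samples (7.79% of all genes passed) and 6 in T-effector samples (4.35%). In Treg samples 10 fell (4.12% of all genes did) and 2 rose (3.67%), and in T-effector samples 6 fell (2.45%) and 0 rose (1.9%), with 3 higher by limma at an unadjusted p below 0.05. Below 0 were 34 of the 40 genes in each sample type, with medians of -0.481 and -0.426, against -0.00944 and 0.0139 over all genes. In Treg samples 7 of the 16 hypoxia genes fell and 2 rose (56.2% called), beside 3 of 24 glycolysis genes that fell (12.5%). In T-effector samples 4 of 24 glycolysis genes (16.7%) and 2 of 16 hypoxia genes (12.5%) fell, so the shares lay close together. Called in both were 3 genes, Pdk1, Bnip3 and Ndrg1, 25% of the Treg list and 50% of the T-effector list. Within slide D, which held 1 array of each group, 23 of 24 glycolysis genes were below 0 in Treg and 20 of 24 in T-effector samples, with medians of -0.742 and -0.468. With the slide as a block the counts were 23 and 15 (11.3% and 7.66% of all genes). Without slide A, 22 genes fell and 2 rose in Treg samples, 14 of the falls being of glycolysis genes, and 8 fell and 1 rose in T-effector samples, beside 9.28% and 3.59% of all genes called. Without single arrays the Treg count was 19 (IL2 array 1), 6 (IL2 array 3) or 7 (TGFb array 1 or array 3), and the T-effector count was 2 (IL2 array 1 or 3), 1 (TGFb array 1), 3 (TGFb array 3), 10 (IL6 array 1) or 11 (IL6 array 2), and 3 without slide E. With each array left out in turn, 5 of the 12 Treg calls (Ldhb, Hif1a, Bnip3l, Higd1a and Mxi1) and 1 of the 6 T-effector calls (Ndrg1) held.

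Whether the effect of TGFb differed with and without IL6 was tested as an interaction, added after the data had been seen. It was called for 1 of the 40 genes in T-effector samples, Higd1a (1.01% of all genes), by -0.86 (SE 0.145, limma adjusted p = 0.0024), a call that was lost without slide B and without slide E. In Treg samples limma called 0 of the 40 (0.93% of all genes), with 5 at an unadjusted p below 0.05, or 12.5% (7.42% of all genes).

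IL6 against IL2 gave no call among the 40 genes by limma in either sample type (0.95% of all genes passed in Treg and 0.799% in T-effector samples). At an unadjusted p below 0.05 there were 6 in Treg and 4 in T-effector samples, or 15% and 10% (8.64% and 4.85% of all genes), 5 and 4 of them higher. Egln3 was higher by 1.02 (SE 0.326, adjusted p = 0.219) in Treg and by 1.01 (SE 0.326, adjusted p = 0.296) in T-effector samples. Without array 2 of IL6 the counts were 3 and 1, without array 1 of IL2 the Treg count was 1, and without slide E it was 1. Without slide A, Egln3 was higher by 1.33 (SE 0.197) in Treg and by 1.15 (SE 0.197) in T-effector samples, and passed the test in both. Its ratio was among the values by which slide A was singled out, so these calls are not independent of that choice. Without slide A the IL2 arrays lay on slides C and D and both IL6 arrays on slide E. Slide and condition therefore cannot be told apart in the calls of IL6 against IL2 without slide A. In Treg samples Pkm rose and Slc16a1 fell without slide A. Of all genes, 1.83% were called there in Treg and 0.694% in T-effector samples. Adding IL6 to TGFb (TGFb+IL6 against TGFb) moved 6 genes in Treg samples (5.62% of all genes) and 5 in T-effector samples (7.46%). These were Slc16a1, Higd1a and Ankrd37, which fell, and Hif1a and P4ha1, which rose, in both sample types, and Mxi1, which fell in Treg samples. Slides E, B and D each held both groups, and the glycolysis medians within them were -0.0895, -0.0707 and -0.0982 in Treg and -0.203, -0.253 and -0.255 in T-effector samples. The Treg count was 3 without any 1 of the TGFb arrays or without array 4 of TGFb+IL6, 2 without slide E and 0 without slide B; the T-effector count was 3 without array 1 of TGFb, 9 without array 2 of IL6, 10 without slide A (9.57% of all genes) and 2 without slide B. These comparisons share arrays with those above, so their counts are not independent.

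**Figure D1:**
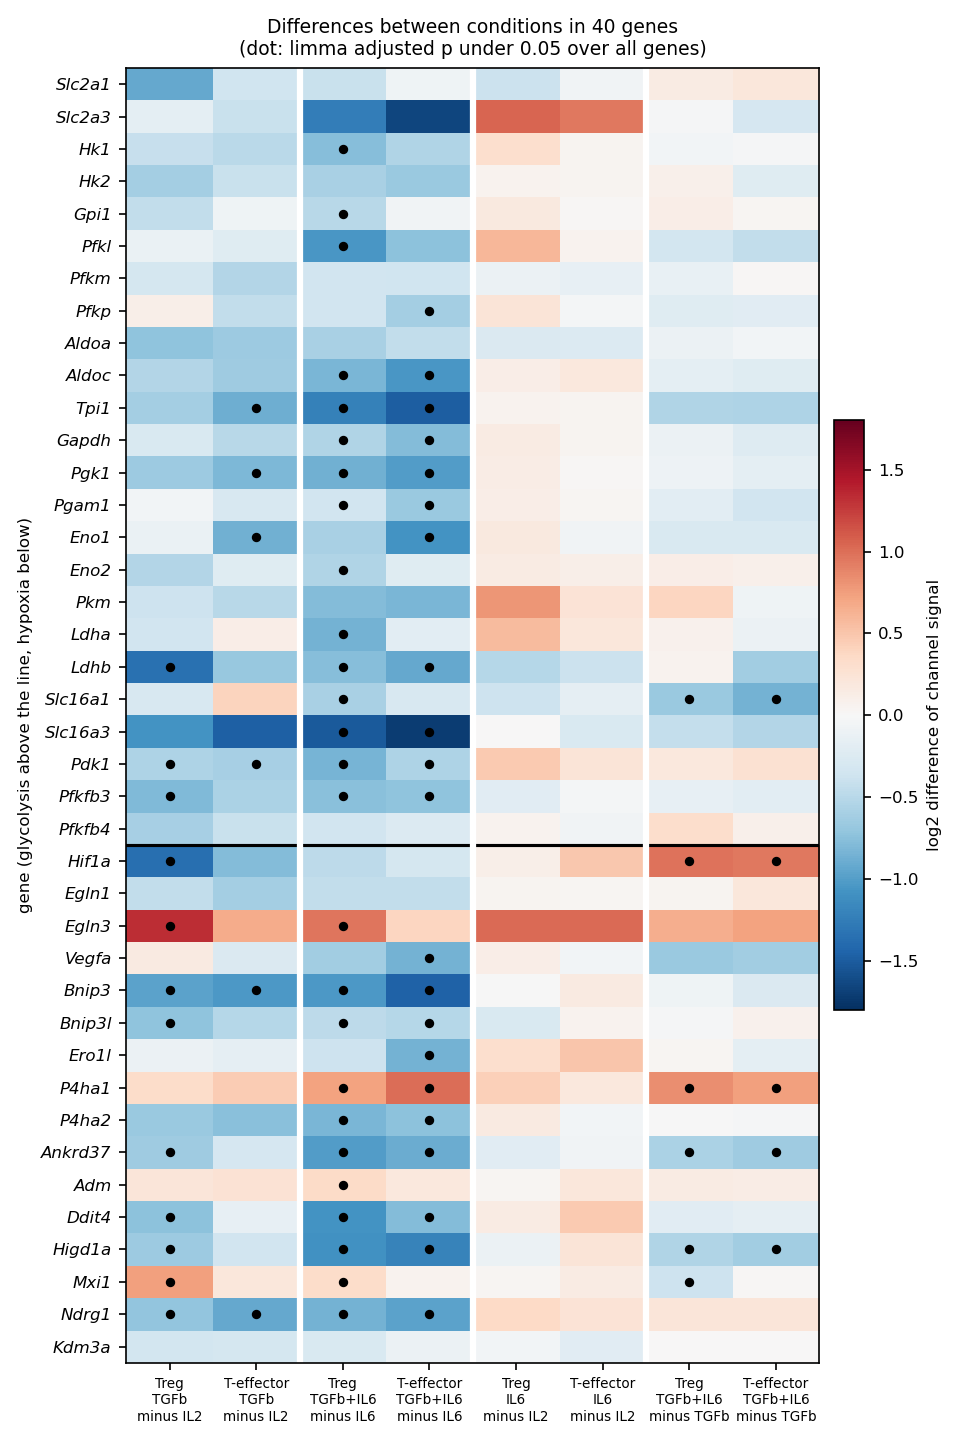
Log2 difference of each of the 40 genes (rows, glycolysis above and hypoxia below) in the 4 comparisons of conditions in Treg and in T-effector samples (columns), as colour, with a dot where the limma adjusted p was below 0.05. The columns of TGFb+IL6 against IL6 hold 26 dots in Treg and 21 in T-effector samples, and those of IL6 against IL2 hold none.

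Glucose enters through the transporters Slc2a1 (GLUT1) and Slc2a3 (GLUT3), and neither passed the test in any comparison of all arrays. Slc2a1 read 11.39 to 13.60 in the Treg channels of IL2, 11.35 to 11.73 with TGFb, 11.39 to 12.22 with TGFb+IL6 and 11.62 to 12.36 with IL6, so its groups overlapped. Without slide A, Slc2a1 fell in Treg samples with TGFb against IL2 by 1.65 (SE 0.36, adjusted p = 0.00576). Slc2a3 read 5.67 in Treg and 5.66 in T-effector cells of IL2 array 2, and 9.20 to 10.22 on the other IL2 arrays in both types. This single array sets the spread of the gene, whose SE was 0.759 against IL2 and 0.706 against IL6. Between TGFb+IL6 and IL6 its groups did not overlap: Treg channels read 8.19, 8.35, 7.80 and 8.39 against 9.57, 9.39 and 9.36, and T-effector channels 7.32, 7.90, 7.71 and 8.03 against 9.0, 9.58 and 9.56. The differences of -1.24 and -1.66 had adjusted p of 0.338 and 0.153 in limma's fit.

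The first enzymes of the pathway trap and split the sugar. Hexokinase 1 (Hk1), which phosphorylates glucose, fell in Treg samples with TGFb+IL6 against IL6 by 0.77 (SE 0.218, adjusted p = 0.0251), and hexokinase 2 (Hk2) passed in no comparison of all arrays. Without slide A, Hk2 was lower in Treg samples by 1.20 (SE 0.113) with TGFb against IL2 and by 0.94 (SE 0.105) with TGFb+IL6 against IL6. It passed the test in both, but Hk2 was among the genes by which slide A was singled out. These calls are therefore not independent of that choice. Over all arrays of TGFb+IL6 against IL6, glucose phosphate isomerase (Gpi1) fell by 0.50 (SE 0.153, adjusted p = 0.0415) in Treg samples, a call lost without slide A. Of the phosphofructokinases, which commit sugar to glycolysis, the liver type Pfkl fell by 1.05 (SE 0.303) in Treg, the platelet type Pfkp fell by 0.61 (SE 0.186) in T-effector samples, with a limma adjusted p of 0.0508 once arrays of the same replicate number were paired (the replicate block), and the muscle type Pfkm was never called. Pfkl showed how the Treg IL6 arrays scattered, at 9.15, 8.11 and 9.66 against 8.07, 8.07, 7.98 and 7.70 with TGFb+IL6. The lowest IL6 value lay just above the highest TGFb+IL6 value. Aldolase C (Aldoc), which cleaves fructose bisphosphate, fell in both sample types with TGFb+IL6 against IL6. Its Treg channels read 7.68, 7.57, 7.54 and 7.65 against 8.54, 7.84 and 8.87, and its T-effector channels 7.14, 7.37, 7.25 and 7.37 against 8.19, 8.43 and 8.41. All TGFb+IL6 values were below all IL6 values, by 0.83 (SE 0.18, adjusted p = 0.00358) and 1.04 (SE 0.18, adjusted p = 0.000407) on the log2 scale. Aldolase A (Aldoa), saturated on 1 T-effector channel, had no call, and its differences from IL6 were -0.58 and -0.45.

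Triose phosphate isomerase (Tpi1), which interconverts the products of aldolase, showed the clearest fall of any glycolysis gene. Its Treg channels read 13.51, 13.72 and 13.92 with IL2, 13.23, 13.26 and 12.93 with TGFb, 14.06, 13.51 and 13.89 with IL6, and 12.70, 12.81, 12.28 and 12.55 with TGFb+IL6. The T-effector channels read 13.99, 14.06 and 14.05 with IL2, 12.81, 13.27 and 13.25 with TGFb, 13.77, 14.18 and 14.18 with IL6, and 12.30, 12.65, 12.51 and 12.85 with TGFb+IL6. Every sample with TGFb was below every sample without it, in both types, and in Treg cells the TGFb+IL6 values were the lowest. Against IL6 it fell 2.32-fold in Treg (-1.21, SE 0.184, adjusted p = 8.78e-05) and 2.8-fold in T-effector samples (-1.49, SE 0.184, adjusted p = 7.56e-06). Against IL2, TGFb lowered it in T-effector samples by 0.88 (SE 0.197, adjusted p = 0.0106). Both falls against IL6 kept their call under all 29 alternative settings.

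The payoff enzymes followed with smaller differences. Phosphoglycerate kinase (Pgk1), which makes the first ATP, fell with TGFb+IL6 against IL6 by 0.87 (SE 0.191) in Treg and 1.00 (SE 0.191) in T-effector samples, and with TGFb against IL2 by 0.80 (SE 0.206) in T-effector samples. Its T-effector channels read 15.54, 15.17 and 15.30 with IL2, and 14.23, 14.92 and 14.59 with TGFb. These groups did not overlap, although without slide A the fall of 0.69 (SE 0.24) had an adjusted p of 0.161. Phosphoglycerate mutase (Pgam1) fell against IL6 by 0.67 (SE 0.11, adjusted p = 0.00025) in T-effector and by 0.35 (SE 0.11, adjusted p = 0.0465) in Treg samples, where its groups overlapped. Enolase 1 (Eno1) fell in T-effector samples, by 0.86 (SE 0.215, adjusted p = 0.0219) with TGFb against IL2 and by 1.07 (SE 0.2, adjusted p = 0.000926) with TGFb+IL6 against IL6. The same differences in Treg samples were -0.12 (adjusted p = 0.85) and -0.58 (adjusted p = 0.0748). Neuronal enolase (Eno2) fell in Treg samples by 0.54 (SE 0.172, adjusted p = 0.0497). Gapdh, whose dim probe leaves its values uncertain, fell by 0.54 (SE 0.165) and 0.78 (SE 0.165). Pyruvate kinase (Pkm), the last step, was lower against IL6 by -0.78 and -0.82 with adjusted p of 0.0844 and 0.0622, and was not called. Without slide A it fell against IL6 by 1.24 (SE 0.223) in Treg and 0.88 (SE 0.223) in T-effector samples.

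Lactate is made by lactate dehydrogenase and exported by monocarboxylate transporters. The subunit gene Ldhb fell with TGFb against IL2 in Treg samples, from 12.18, 11.67 and 11.64 to 10.48, 10.45 and 10.58. The TGFb values lay close together and well below all IL2 values, and the fall was 2.53-fold (-1.34, SE 0.221, adjusted p = 0.000286). With TGFb+IL6 against IL6, Ldhb fell by 0.77 (SE 0.205) in Treg and 0.92 (SE 0.205) in T-effector samples, the former with an adjusted p of 0.0663 without slide A. Ldha, the subunit that favours lactate, fell in Treg samples with TGFb+IL6 against IL6 by 0.85 (SE 0.184, adjusted p = 0.00351), although its groups overlapped (14.94, 14.99, 15.24 and 15.58 against 15.74, 15.42 and 16.67). In T-effector samples its difference was -0.19 (adjusted p = 0.608). The transporter Slc16a3 (MCT4), which exports lactate, read 9.89, 10.02, 9.76 and 9.93 in Treg channels of TGFb+IL6 against 11.95, 10.68 and 11.61 with IL6. In T-effector channels it read 9.26, 10.11, 10.05 and 10.01 against 11.05, 11.81 and 11.85. The groups did not overlap. The fold differences, 2.85 (limma adjusted p = 0.0312) and 3.28 (limma adjusted p = 0.0132), were the largest among the 40 genes in that comparison. The Treg call was lost without any 1 of the TGFb+IL6 arrays, without IL6 array 1 or 3, and with the replicate block. The T-effector call was lost without TGFb+IL6 array 1 or IL6 array 3. Slc16a1 (MCT1), which carries lactate in either direction, was the 1 glycolysis gene called when IL6 was added to TGFb. It fell by 0.67 (SE 0.17, adjusted p = 0.0191) in Treg and by 0.85 (SE 0.17, adjusted p = 0.00246) in T-effector samples, from 11.86, 12.29 and 12.00 to 11.17, 11.14, 11.31 and 11.26 in the latter. With the replicate block the Treg fall had a limma adjusted p of 0.075.

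Of 3 kinases that steer the flow, 2 fell. Pdk1 inhibits pyruvate dehydrogenase, the enzyme that converts pyruvate inside mitochondria. It fell in all 4 comparisons of TGFb with its absence, against IL2 and against IL6 in both sample types. Against IL2 it fell by 0.56 (SE 0.141) in Treg and 0.60 (SE 0.141) in T-effector samples, and against IL6 by 0.84 (SE 0.131, adjusted p = 0.000128) and 0.56 (SE 0.131, adjusted p = 0.00661). Its groups were apart in each. Pfkfb3, which makes the activator of phosphofructokinase, fell in Treg samples by 0.80 (SE 0.186) against IL2 and by 0.75 (SE 0.173) and, in T-effector samples, 0.72 (SE 0.173) against IL6. Its relative Pfkfb4 was not called, with differences from -0.59 to 0.32. Without slide A, Pfkfb4 fell in Treg samples with TGFb against IL2 by 0.93 (SE 0.237, adjusted p = 0.0173 by limma).

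**Figure D2:**
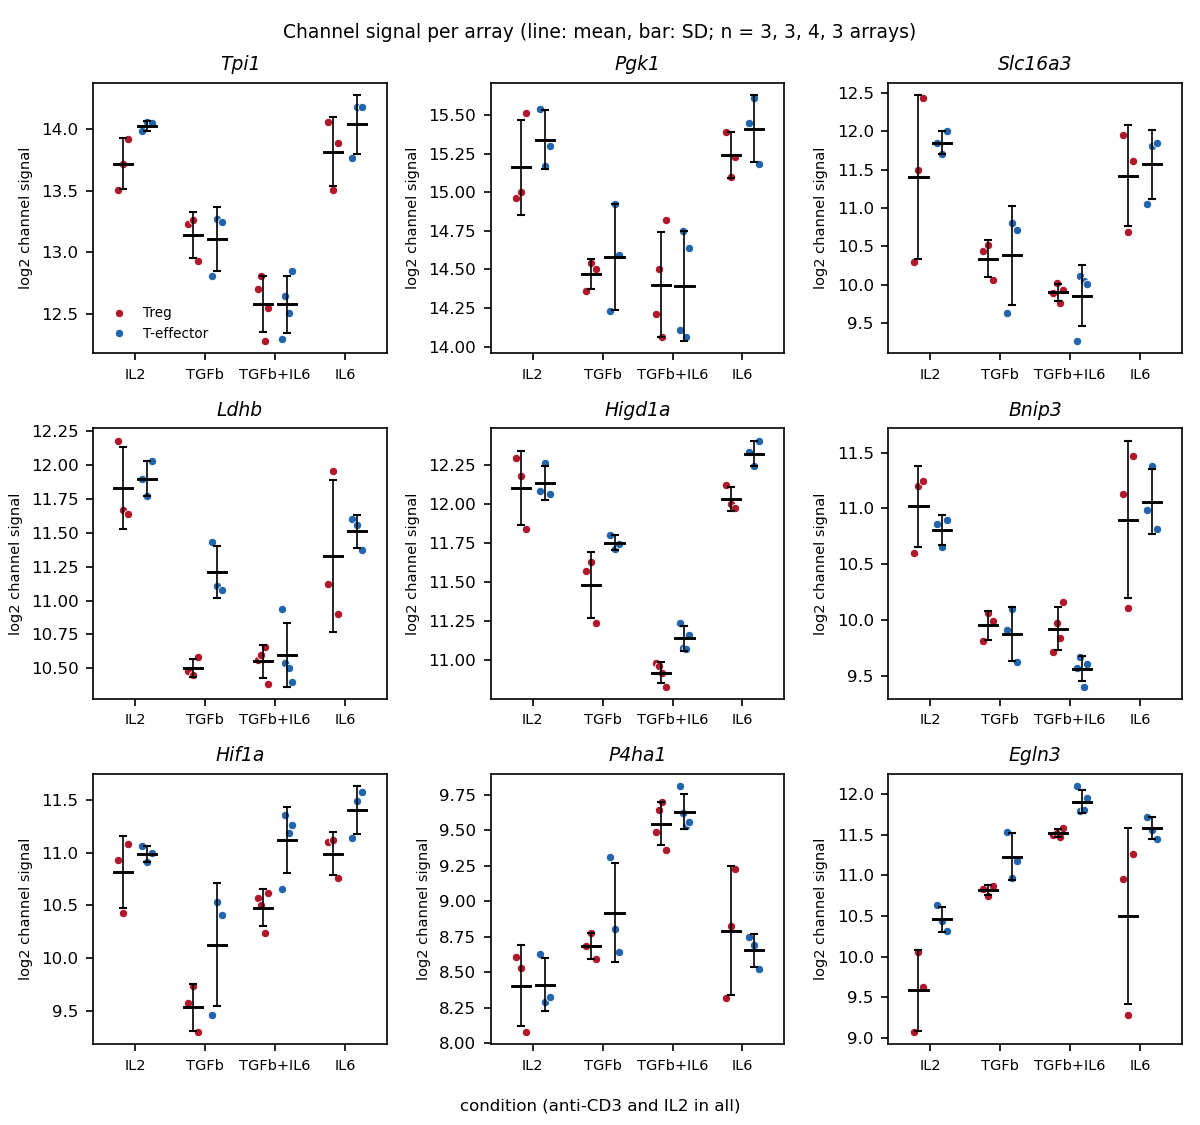
Log2 channel signal of 9 genes on each array, by condition, with Treg and T-effector channels marked apart. For Tpi1 every point with TGFb lies below every point without it, P4ha1 is highest with TGFb+IL6, and Hif1a in Treg cells is lowest with TGFb (9.30 to 9.73).

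The alpha subunit gene Hif1a fell with TGFb and rose when IL6 was added to it. Its Treg channels read 10.93, 10.43 and 11.08 with IL2, 9.57, 9.73 and 9.30 with TGFb, 10.57, 10.50, 10.24 and 10.62 with TGFb+IL6, and 11.10, 11.12 and 10.76 with IL6. The TGFb values stood below all others. With TGFb against IL2 it fell 2.55-fold in Treg samples (-1.35, SE 0.236, adjusted p = 0.00053), and in T-effector samples the difference was -0.78 (SE 0.236, adjusted p = 0.0654). Adding IL6 to TGFb raised it by 0.98 (SE 0.219, adjusted p = 0.00721) in Treg and 0.95 (SE 0.219, adjusted p = 0.00806) in T-effector samples. Between TGFb+IL6 and IL6 it differed by -0.47 (adjusted p = 0.216) and -0.32 (adjusted p = 0.433). The hydroxylase Egln1, which marks HIF-1 alpha for destruction, was called in no comparison, with differences from -0.61 to 0.20. Egln3, a hydroxylase that is itself a target of HIF-1, went the other way from most. Its Treg channels read 9.07, 10.06 and 9.62 with IL2, 10.83, 10.75 and 10.87 with TGFb, 11.50, 11.52, 11.47 and 11.58 with TGFb+IL6, and 10.96, 9.27 and 11.27 with IL6. All TGFb and TGFb+IL6 arrays exceeded all IL2 arrays, while the IL6 arrays scattered. It rose by 1.33 (SE 0.326, adjusted p = 0.0113) with TGFb against IL2 and by 0.97 (SE 0.303, adjusted p = 0.046) with TGFb+IL6 against IL6, both in Treg samples, the latter with an adjusted p of 0.161 without slide A.

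Among the HIF-1 targets, Higd1a, a mitochondrial protein of the respiratory chain, gave the smallest adjusted p of the 40 genes. Its Treg channels read 12.12, 12.00 and 11.97 with IL6 and 10.98, 10.96, 10.92 and 10.83 with TGFb+IL6, and its T-effector channels read 12.33, 12.24 and 12.40 against 11.24, 11.08, 11.07 and 11.16. The groups stood about a log2 unit apart, with falls of 1.09 (SE 0.0985, adjusted p = 7.73e-08) and 1.20 (SE 0.0985, adjusted p = 1.87e-08). It also fell with TGFb against IL2 in Treg samples, by 0.66 (SE 0.106), and with IL6 added to TGFb, by 0.54 and 0.63 (SE 0.0985 each). Bnip3, a receptor for mitophagy, fell in both sample types with TGFb against IL2 and with TGFb+IL6 against IL6, by 0.96 (SE 0.241) and 1.03 (SE 0.241) against IL2 and by 1.03 (SE 0.224) and 1.45 (SE 0.224, adjusted p = 0.000118) against IL6. In T-effector channels it read 9.57, 9.66, 9.40 and 9.61 with TGFb+IL6 against 10.99, 11.38 and 10.82 with IL6, and in Treg channels the groups overlapped, with IL6 array 2 at 10.11 against 11.13 and 11.47 on the others. Its relative Bnip3l fell in Treg samples against IL2 by 0.72 (SE 0.156), and against IL6 by 0.47 and 0.51 (SE 0.145 each).

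Ndrg1, a stress gene, fell in the same comparisons as Bnip3, by 0.71 (SE 0.179) and 0.92 (SE 0.179, adjusted p = 0.003) against IL2 and by 0.85 (SE 0.166) and 0.96 (SE 0.166) against IL6. Its T-effector channels read 9.62, 9.47 and 9.67 with IL2 and 8.35, 8.93 and 8.62 with TGFb, with no overlap. Ankrd37, a small HIF-1 target, fell in both types with TGFb+IL6, against IL6 by 1.00 (SE 0.141, adjusted p = 3.61e-05) and 0.89 (SE 0.141, adjusted p = 0.00015), and against TGFb by 0.57 and 0.64 (SE 0.141 each). Ddit4 (REDD1), an inhibitor of the growth kinase mTORC1, fell by 1.08 (SE 0.209, adjusted p = 0.00123) in Treg and 0.79 (SE 0.209, adjusted p = 0.0162) in T-effector samples against IL6, and by 0.73 (SE 0.225, adjusted p = 0.0496) in Treg samples against IL2. Vegfa, the vascular growth factor, and Ero1l, which oxidises the protein-folding enzyme PDI, fell against IL6 in T-effector samples, by 0.84 (SE 0.207) and 0.85 (SE 0.178). In Treg samples these differences were -0.63 (adjusted p = 0.0579) and -0.38 (adjusted p = 0.23).

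The prolyl hydroxylases of collagen moved apart. P4ha1, the main catalytic subunit gene, rose with TGFb+IL6, at 9.49, 9.64, 9.70 and 9.36 in Treg and 9.81, 9.62, 9.53 and 9.56 in T-effector channels. With TGFb it read 8.68, 8.78 and 8.60 in Treg and 9.31, 8.80 and 8.64 in T-effector channels, and with IL6 8.32, 8.83 and 9.23 and 8.75, 8.69 and 8.52. The TGFb+IL6 arrays were the highest in both types. The rises were 0.84 and 0.74 (SE 0.188 each) against TGFb, and 0.73 (SE 0.188, adjusted p = 0.0139) and 1.00 (SE 0.188, adjusted p = 0.00101) against IL6. P4ha2, whose probe was above background in 17 of 26 channels, fell against IL6 by 0.82 (SE 0.217) and 0.74 (SE 0.217), the latter, in T-effector samples, with a limma adjusted p of 0.0886 with the replicate block. Mxi1, which opposes Myc, rose in Treg samples with TGFb against IL2, from 8.37, 8.45 and 8.40 to 9.11, 9.21 and 9.06. The arrays of the 2 groups were far apart for their spread, at 0.74 (SE 0.109, adjusted p = 8.1e-05). With IL6 added to TGFb it fell by 0.37 (SE 0.102; limma adjusted p = 0.135 with the replicate block), and it stayed above IL6 by 0.33 (SE 0.102), both in Treg samples. Adm, the peptide adrenomedullin, rose in Treg samples against IL6 by 0.34 (SE 0.107, adjusted p = 0.0469), with overlapping groups. The histone demethylase Kdm3a was not called in any comparison, with differences from -0.33 to 0.0099.

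Treg and T-effector cells on the same array were compared by the ratio of their channels, fitted together with a dye term; the fitted ratio can therefore differ from the mean over arrays. Few of the 40 genes differed. With IL2 they were 4, or 10% (11% of all genes passed), with TGFb 4, or 10% (5.98%), with TGFb+IL6 5, or 12.5% (5.85%), and with IL6 3, or 7.5% (5.84%). Without slide A these counts were 8, 7, 12 and 7, beside 12.7%, 11.4%, 13.9% and 8.69% of all genes. With TGFb, Slc16a1 was lower in Treg, at log2 ratios of -0.60, -0.73 and -1.15 (fitted -0.87, SE 0.117, adjusted p = 0.00134). Mxi1 was higher, at 0.84, 0.54 and 0.71 (fitted 0.71, SE 0.0877, adjusted p = 0.000729). Eno1 was higher too, at 0.93, 0.83 and 0.34 (fitted 0.61, SE 0.13, adjusted p = 0.0176), and Ldhb was lower, at -0.72 (SE 0.182, adjusted p = 0.0395). All 3 arrays had the same sign for each. With TGFb+IL6, Slc16a1 was lower, at -0.69 (SE 0.1), as was Hif1a, at -0.63 (SE 0.168), and Eno1, Ndrg1 and Mxi1 were higher by 0.60 (SE 0.111), 0.39 (SE 0.103) and 0.32 (SE 0.0749), with all 4 arrays of 1 sign. The calls of Hif1a and Ndrg1 were each lost without any 1 of these 4 arrays, and had limma adjusted p of 0.0653 and 0.0507 with the replicate block. With IL2, Egln3 (-0.98, SE 0.269), Pfkp (-0.56, SE 0.157) and Pgam1 (-0.39, SE 0.0951) were lower in Treg, and Ddit4 was higher by 0.86 (SE 0.191), a sign that median centring turned. With IL6, Ero1l (-0.60, SE 0.134) and Higd1a (-0.33, SE 0.0839) were lower, and Gpi1 was higher by 0.36 (SE 0.0816), which median centring also turned. Without slide A, Ero1l had an adjusted p of 0.0822 and Higd1a one of 0.078 by limma.

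The authors' deposited table of log2 values gave -1.01 for Slc16a1 with TGFb and -0.74 with TGFb+IL6, 0.64 and 0.77 for Eno1, and 0.78 and 0.44 for Mxi1. In the authors' deposited table Egln3 stood at -1.16 and Ddit4 at 0.70 with IL2. These values have the signs of the ratios above. When arrays were centred on their median with no loess, the median over all genes shifted by more than 0.1, to -0.297 with IL2 and -0.319 with IL6 in the ratios, and to 0.427 and 0.317 in the differences between ratios described next. The calls also depended on single arrays: with each array left out in turn, Mxi1 with TGFb and Slc16a1 with TGFb+IL6 held, and each other ratio call was lost at least once. With IL2 the count was 1 without IL2 array 1, 0 without IL2 array 2 or 3, and 2 without array 1, 3 or 4 of TGFb+IL6. With TGFb it was 2 without TGFb array 2 and 1 without TGFb array 3, and with IL6 it was 0 without IL6 array 3. With TGFb+IL6 it was 1 without its array 1, 2 or 3, 3 without its array 4, IL2 array 2, TGFb array 2, TGFb array 3 or IL6 array 3, and 9 without IL6 array 2.

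The change of that ratio between conditions was tested itself. From IL2 to TGFb it changed for 3 of the 40 genes (5.87% of all genes), Eno1 by 0.74 (SE 0.186, adjusted p = 0.0401), Mxi1 by 0.54 (SE 0.126, adjusted p = 0.032) and Slc16a1 by -0.69 (SE 0.168, adjusted p = 0.0367), the sign of the last turning under median centring. From IL6 to TGFb+IL6 it changed for Gpi1 (4% of all genes), by -0.43 (SE 0.107, adjusted p = 0.049), also turned by median centring. From TGFb to TGFb+IL6 (0.292% of all genes) and from IL2 to IL6 (0% of all genes) limma called none, with 2 and 1 of the 40, or 5% and 2.5%, at an unadjusted p below 0.05 (5.17% and 3.43% of all genes). The 3 calls fell to 0 without IL2 array 2, TGFb array 1 or 3, TGFb+IL6 array 3 or IL6 array 3, and to 1 without IL2 array 3, TGFb array 2 or TGFb+IL6 array 2. The Gpi1 call was kept without IL2 array 1 and lost without any other single array. Without slide A the counts were 7 and 2 (7.86% and 4.71% of all genes), Eno1, Slc16a1 and Gpi1 kept their calls, and Mxi1, at 0.43 (SE 0.14), had an adjusted p of 0.0923.

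**Figure D3:**
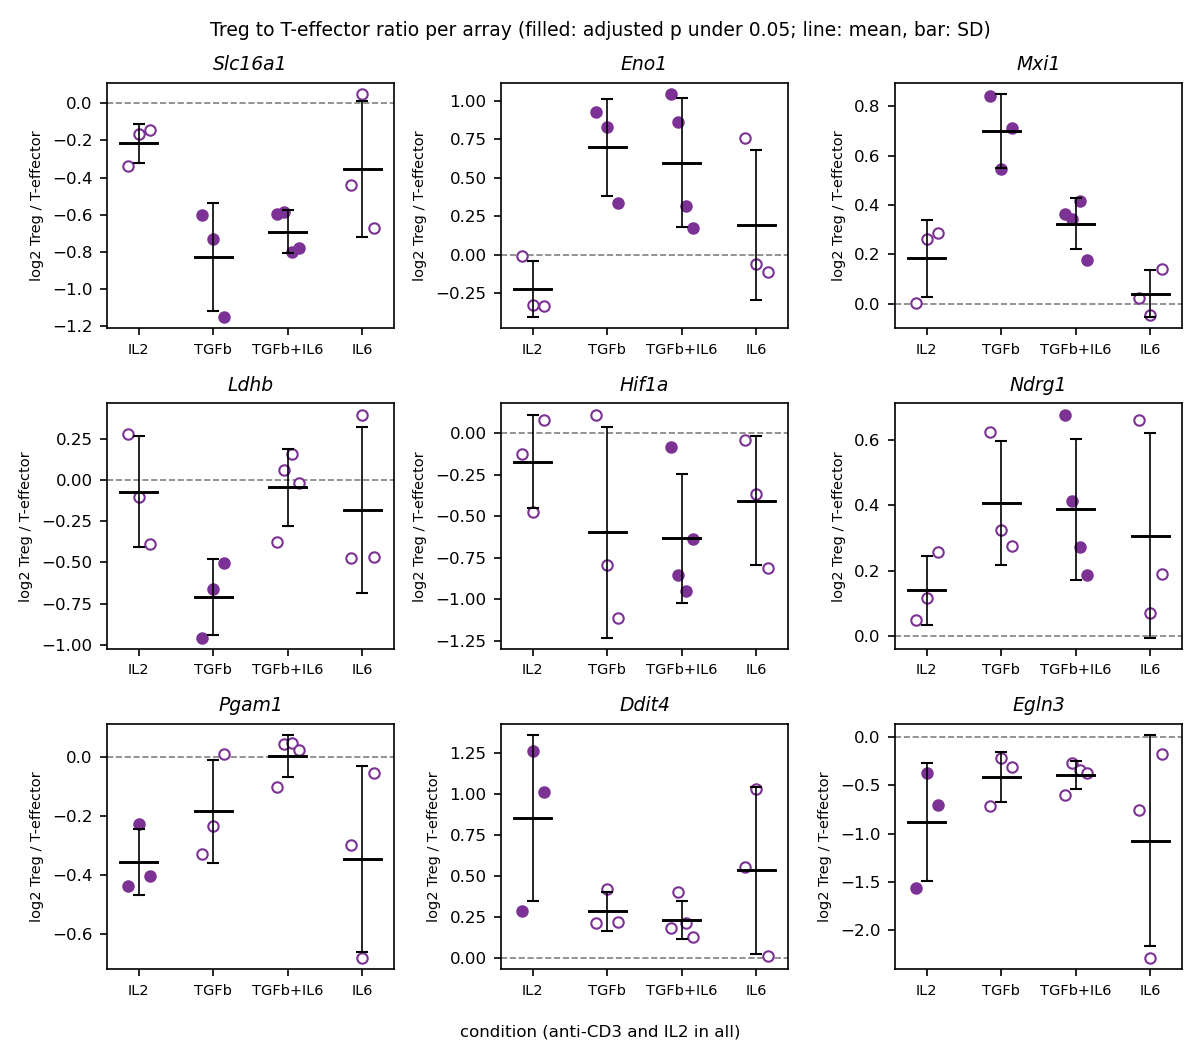
Log2 ratio of the Treg over the T-effector channel of 9 genes on each array, by condition, with the line at 0 marking equal signal. With TGFb, Slc16a1 lies at -1.15 to -0.60 and Mxi1 at 0.54 to 0.84, while with IL2 Mxi1 lies at 0.01 to 0.29.

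Neighbouring genes were read from lists of other sugar branches (26 of 29 tested), other hypoxia genes (20 of 21) and growth and energy genes (10 of 10). With TGFb+IL6 against IL6, 4.84% of all genes rose and 5.25% fell in Treg samples, and 5.13% rose and 6.05% fell in T-effector samples. In that comparison 1 sugar branch gene rose and 3 fell in Treg samples and 5 fell in T-effector samples. In the hypoxia list 1 rose and 4 fell in Treg, and 2 rose and 5 fell in T-effector samples. Among the growth genes 1 rose in Treg, and 1 rose and 1 fell in T-effector samples. Only some of the called genes are named below. The pentose pathway enzyme Tkt fell by 0.58 and 0.50, and the phosphoglucomutase Pgm1 by 1.01 and 0.90. Of the hypoxia genes, the mitochondrial Fam162a fell by 1.31 and 0.90, Hilpda, a lipid droplet protein, by 0.75 and 0.82, and the glycoprotein Stc2 by 1.56 and 1.83. Plod2, another collagen hydroxylase, rose by 1.04 and 0.78. With TGFb against IL2, Pdha1, a subunit of pyruvate dehydrogenase, rose by 0.77 in Treg and 0.47 in T-effector samples.

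Markers of other cell types moved in the same comparisons. Of 4 B cell genes given here, Cd79b fell in both types with TGFb against IL2 and with TGFb+IL6 against IL6, and in T-effector samples also with IL6 against IL2, while Ms4a1, Cd79a and Blk passed none of these tests. Their summed signal on the log2 scale ranged from 9.711 to 10.74 with IL2, 8.647 to 9.027 with TGFb, 8.418 to 9.107 with TGFb+IL6 and 9.021 to 10.04 with IL6 in Treg channels. In T-effector channels it ranged from 10.71 to 10.76 with IL2, 8.671 to 10.19 with TGFb, 8.561 to 10.43 with TGFb+IL6 and 9.232 to 9.686 with IL6. Of 5 CD8 T and NK genes, Cd8a and Klrd1 rose in Treg samples with TGFb against IL2, and 2 rose in Treg and 1, Klrd1, in T-effector samples with TGFb+IL6 against IL6. Their sum in Treg channels ranged from 10.35 to 11.61 with IL2, 11.59 to 12.07 with TGFb, 11.99 to 12.27 with TGFb+IL6 and 10.38 to 11.78 with IL6, and in T-effector channels from 11.42 to 11.9 over all 4 conditions. The myeloid genes Lyz2 and Itgam were above background in 2 of 26 channels, as was the erythroid Alas2, and none of the 4 myeloid or 2 erythroid genes tested was called. The myeloid gene Csf1r read 8.03 (IL2) and 8.52 (IL6) in the Treg channels of slide A. In the other Treg channels of these conditions it read 6.25 to 6.92. The myeloid genes Cd14, Itgax and Cd68 did not stand apart on both of these arrays. The part of these cells in the differences of the 40 genes was not tested.

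**Figure D4:**
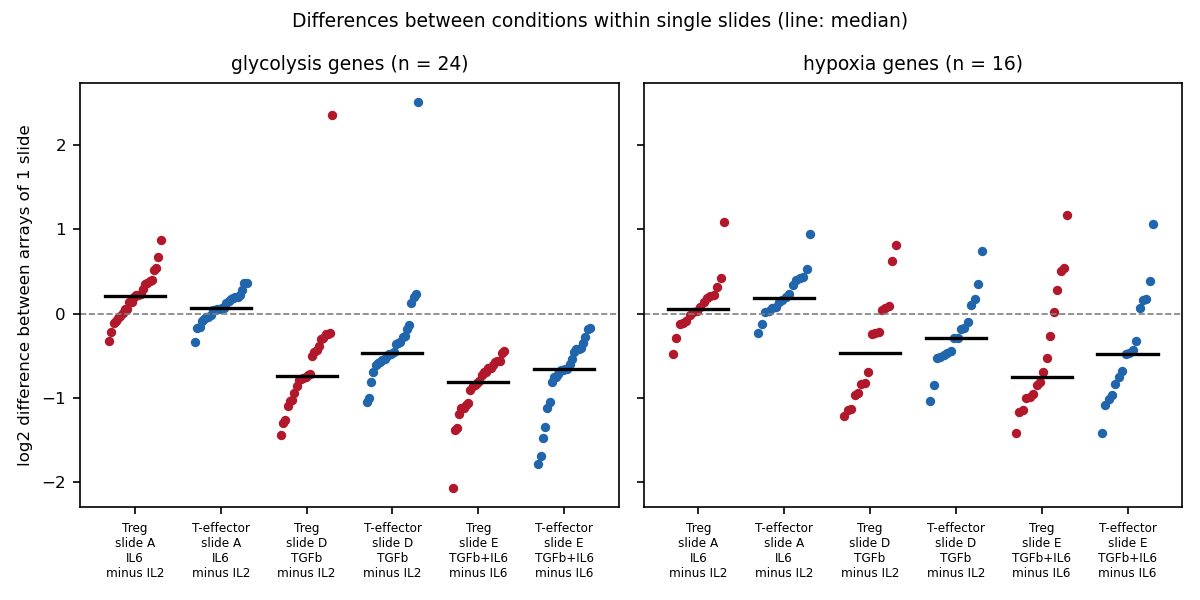
Log2 difference of each glycolysis and hypoxia gene between 1 array of each condition on the same slide, with medians marked. Slide D served for TGFb against IL2, slide E for TGFb+IL6 against IL6 and slide A for IL6 against IL2. On slide E all 24 glycolysis genes lie below 0 in both sample types, and on slide A 6 (Treg) and 8 (T-effector) of 24 do; the high points on slide D are Slc2a3, which read low on IL2 array 2.

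Further probes of the 40 genes mostly had the same direction. In 58 pairs of a called gene and a further probe of it, from 22 probes of 15 genes, 50 had the same direction, 17 of these passed the test as well and 0 were called the opposite way. Gpi1, Pgk1 and Vegfa have probes printed 10 times, with a median SD within an array of 0.0921, 0.152 and 0.133 against 0.0892, 0.276 and 0.271 between arrays of a group.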

How the data were processed

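The 13 arrays were scanned by the authors with Agilent software, and per the file headers and the submitters' processing notes Feature Extraction 9.5.1.1 made the deposited intensity values, the mean signal and the median local background of each dye for 45018 spots, 1639 of them controls. Per the file headers, the program also wrote a processed intensity for each dye, with background and spatial trend removed and the dyes balanced. The deposited log10 ratio sets processed Cy5 over Cy3. The authors' table holds deposited log2 values per probe and condition; set against the arrays, its columns correlated at 0.85 to 0.899 with Treg over T-effector, its medians lay at -0.0831 to -0.016, and its centring is unknown. The dye of each sample is given per the labels.

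Background was corrected with normexp (offset 50, with spots of outlying local background left out of its fit), followed by loess within arrays in limma 3.58.1 (R 4.3.3). Spots of a probe were averaged, a probe was kept if 3 or more of its 26 channels stood well above background and at most 3 arrays were missing, and each gene was represented by its brightest probe. Probes were named from the RefSeq table, with 3 of the 40 genes found by an older name or gene number (Pkm, Kdm3a, Gapdh). Log ratios were fitted with a dye term (8 residual degrees of freedom), and single channels after Aquantile normalization with 17 residual degrees of freedom and a correlation of 0.45 between the channels of a spot. Tests were limma's moderated tests, two-sided, adjusted by Benjamini-Hochberg over 19895 genes in each of 18 comparisons. The number of arrays limits the precision. The code was tested on simulated data. The 40 genes, the neighbouring gene lists, the marker lists and the rule that any of the 40 may be named were chosen with earlier results of these data known. Some genes of the marker lists are not reported here.

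Arrays of the same number in TGFb and TGFb+IL6 lie on the same slide in the same dye. Their deviations from the group means correlated at 0.54 to 0.76 for ratios, at 0.4 to 0.7 for Treg channels and at 0.28 to 0.85 for T-effector channels, so these numbers pair the arrays; with the replicate block the counts of called genes were 4 in Treg and 5 in T-effector samples. In T-effector channels the numbers of TGFb+IL6 and IL6 also paired, at 0.15 to 0.7. All 3 of these pairs shared a dye and 1 shared a slide, and 19 genes were called under the block. No other conditions had all 3 pairs correlated. Whether paired arrays share more than slide or dye, such as a culture, was not tested. Alternatives covered background, normalization, filter, probe rule, dye, slide and replicate blocks, and leaving out arrays or slides.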

Additional observations from a re-analysis of the deposited data

Results flagged for a closer look

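Among the 120 sets of 4 values with TGFb+IL6, 7 (5.83%) had 1 array far from the other 3, where chance gives about 1 in 20. Array 1, on slide E, was the one apart in 5 of them. In T-effector channels it read 9.262 for Slc16a3 (10.01 to 10.11 on the others), 7.856 for Pfkfb4 (8.353 to 8.433) and 9.808 for Ero1l (9.222 to 9.263). Its log2 ratio was -0.1014 for Pgam1 (0.0258 to 0.04747) and -0.61 for Ankrd37 (-0.2135 to -0.1395). Array 2 read 6.986 for Eno2 in the T-effector channel (6.656 to 6.709), and array 3 had a ratio of 0.02933 for Gapdh (0.1556 to 0.1809).

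The Treg to T-effector ratio differed between conditions by limma's test of the difference itself for 4 genes. From IL2 to TGFb it changed by 0.744 for Eno1, -0.6906 for Slc16a1 and 0.5412 for Mxi1, and from IL6 to TGFb+IL6 by -0.4295 for Gpi1.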

How the results depend on the processing

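Of the 97 calls on single genes, 21 held under all 29 alternative settings, and the others were lost under at least 1. Without slide B, 52 of the 97 held, and fewer held without slide E, which leaves 1 IL6 array. Among the 21 were Higd1a, Tpi1 and Ankrd37 with TGFb+IL6 against IL6 in both sample types. Hif1a, Ldhb, Bnip3l, Higd1a and Mxi1 with TGFb against IL2 in Treg samples were also among them. The median of the 24 glycolysis genes was below 0 under each of these settings, with TGFb+IL6 against IL6 at -0.807 to -0.419 (Treg) and -0.724 to -0.601 (T-effector), and with TGFb against IL2 at -0.711 to -0.365 (Treg) and -0.564 to -0.41 (T-effector). The cause of the shifts below was not tested. Few arrays and dim probes (P4ha2, Eno2, Adm, Gapdh) limit the precision, and slide and condition are only partly separated, since 1 slide held both groups in each comparison except TGFb+IL6 against TGFb, where 3 did. The authors' value table has no error and was compared by value.

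Counts of called genes among the 40 are given here where they moved by over 1.5 times. For these counts, and for those without single arrays above, the share of all genes called is mostly not given. They show how the calls depend on the setting, and cannot be set against all genes. With median centring the median over all genes shifted as well. For the Treg to T-effector ratio with IL2 (4 called), the count was 1 with background parameters fitted on all spots, 2 without the offset, 33 with median centring, 9 with the spatial trend removed, 2 without the dye term, 2 with the slide block, 8 without slide A and 0 without slide B. With TGFb (4) it was 2 with background parameters from all spots, 9 with Agilent's processed signals, 1 with median centring, 10 with the spatial trend removed, 8 with the slide block, 7 without slide A and 2 without slide B. With TGFb+IL6 (5) it was 3 without background subtraction, 2 with parameters from all spots, 2 without the offset, 10 with processed signals, 0 with median centring, 10 with the spatial trend removed, 3 without the filter, 2 without the dye term, 2 with averaged arrays of a slide, 12 without slide A and 0 without slide B. With IL6 (3) it was 0 without the offset, 6 with processed signals, 31 with median centring, 10 with the spatial trend removed, 1 without the dye term, 5 with the slide block, 0 with averaged arrays, 7 without slide A, 1 without slide B and 6 without slide E. With arrays left out singly these counts ranged from 0 to 5, 1 to 4, 1 to 9 and 0 to 4.

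For the change of the ratio from IL2 to TGFb (3), the count was 0 with parameters from all spots, 0 without the offset, 5 with processed signals, 21 with median centring, 6 with the spatial trend removed, 1 without the dye term, 1 with the slide block, 7 without slide A and 0 without slide B. From TGFb to TGFb+IL6 (0) it was 2 with the spatial trend removed and 1 with the slide block. From IL6 to TGFb+IL6 (1) it was 0 without background subtraction, without the offset, with the stricter filter, with every probe on its own, without the dye term, with averaged arrays and without slide B, 4 with processed signals, 21 with median centring, 5 with the spatial trend removed, 2 with the slide block, 2 without slide A and 5 without slide E. Single arrays left out gave 0 to 4 and 0 to 1 for the first and last of these, and 0 for the change from TGFb to TGFb+IL6 and from IL2 to IL6.

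Within Treg samples, TGFb against IL2 (12) gave 23 with the slide block and 24 without slide A, IL6 against IL2 (0) gave 1 with the slide block, 3 without slide A and 1 without slide E, TGFb+IL6 against TGFb (6) gave 10 with the slide block, 3 with averaged arrays, 0 without slide B and 2 without slide E, and TGFb+IL6 against IL6 (26) gave 12 with averaged arrays, 14 without slide B and 7 without slide E. Within T-effector samples, TGFb against IL2 (6) gave 16 with processed signals, 13 with the spatial trend removed, 15 with the slide block and 3 without slide E, and IL6 against IL2 (0) gave 1 with processed signals, with the slide block and without slide A. There, TGFb+IL6 against TGFb (5) gave 8 with median centring, 13 with the slide block, 10 without slide A and 2 without slide B, and TGFb+IL6 against IL6 (21) gave 9 without slide E. The interaction gave 1 in Treg samples (0) with processed signals and with the spatial trend removed and 2 with the slide block, and in T-effector samples (1) it gave 3 with the slide block and 0 without slide B or slide E. With single arrays left out the ranges were 6 to 19, 0 to 3, 3 to 7 and 13 to 23 in Treg samples, 1 to 11, 0 to 1, 3 to 9 and 14 to 24 in T-effector samples, and 0 and 1 for the interaction.

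With the replicate number as a block, the count was 1 for the ratio with IL2, 3 with TGFb+IL6 and 1 with IL6, 1 for the change of the ratio from IL2 to TGFb, 0 from IL6 to TGFb+IL6, and 15 for Treg samples of TGFb+IL6 against IL6; the other counts stayed within 1.5 times. The numbers pair the arrays of TGFb and TGFb+IL6 and, in T-effector channels, those of TGFb+IL6 and IL6.

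Signs turned under median centring for ratios and their changes. With IL2 the ratios became -0.9034 for Hk1, -0.9063 for Gpi1, -1.106 for Aldoa, -1.047 for Ldha, -0.5988 for Egln1, -0.8567 for Bnip3, -0.9059 for Bnip3l, -0.1227 for Ddit4, -1.011 for Higd1a, -0.4953 for Mxi1 and -0.7074 for Ndrg1. With IL6 they became -0.8225 for Slc2a3, -0.9193 for Gpi1, -1.308 for Aldoa, -0.5865 for Aldoc, -0.7747 for Eno1, -0.9142 for Ldha, -0.621 for Pfkfb4, -0.5792 for Egln1, -0.6512 for Mxi1, -0.654 for Ndrg1 and -0.8701 for Kdm3a. The change from IL2 to TGFb became 1.232 for Aldoa, 0.4547 for Slc16a1, 0.8647 for Pfkfb3 and 1.044 for Kdm3a, and that from IL6 to TGFb+IL6 became 0.742 for Gpi1, 1.118 for Aldoa, 0.8865 for Pfkfb3, 0.8361 for Hif1a and 0.7036 for Kdm3a. Without slide A the ratio of Hk2 with IL2 became 0.3889, that of Bnip3 with IL6 became 0.3982, and the change of Hk1 from IL2 to TGFb became -0.478.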
